A study of Mus musculus with 6 samples.

Results

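miR-335 is a microRNA (miRNA) of the imprinted Mest locus, and both of its mature forms, mmu-miR-335-5p and mmu-miR-335-3p, were followed here among the 1899 mature miRNA entries counted in mouse embryonic stem cells. A miRNA hairpin is cut into a duplex with a 5p and a 3p arm, named for the side of the hairpin, and an arm that is loaded into an Argonaute protein guides it to messenger RNAs that match its seed, bases 2 to 8. The pair was chosen by its measured values, namely its near loss in the Wt1 knockout libraries, so its levels in knockout against wild-type libraries are a description and carry no test. Both members were found in the files, 2 of 1899 entries.

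The cells were 129/Ola embryonic stem cells, either with Wt1 knocked out (Wt1 KO) or wild type (WT). Wt1, the Wilms tumour gene, encodes a zinc finger transcription factor that is needed for kidney and gonad development. There was 1 small RNA library for each of 6 groups, namely untreated Wt1 KO, Wt1 KO induced with doxycycline (dox, 1 µg/ml) for 12 h, the same for 24 h, Wt1 KO with retinoic acid (RA, a vitamin A derivative that makes stem cells differentiate), WT with RA, and untreated WT. RA was given at 1 µM (the unit is written as µm in the labels), and the sources used here do not state for how long. The series title and design describe the dox libraries as induction of Wt1, but which line carried that gene is not stated in the labels, and the dox libraries and the untreated Wt1 KO library need not share one. Wt1 itself was not measured in these libraries. The growth medium held serum and LIF, the cytokine that keeps mouse stem cells undifferentiated, on gelatin, and no feeder cells are mentioned.

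Total uniquely matched reads ran from 83626 in Wt1 KO with RA to 6106104 in WT with RA. Levels are given as normalised CPM, reads per 1000000 after scaling the libraries to each other. The 95% intervals in brackets cover counting error only, since PCR copies were not marked and reads need not be separate molecules. With 1 library per group there is no replicate check, no p-value can be given, and each comparison is between libraries. The miR-290 and miR-302 clusters, which mark mouse embryonic stem cells, held 16.1% to 23.5% of the reads in the 4 libraries without RA, 9.40% in Wt1 KO with RA and 0.753% in WT with RA. A miRNA was called higher or lower by size, where its log2 ratio was at least 1 or at most -1 with a counting interval that excludes 0, among the 351 miRNAs whose counts averaged 50 or more. miR-335-3p passed this minimum, with a mean of 1604.5 reads that came mostly from WT with RA. miR-335-5p did not, with a mean of 47.5 reads, and its ratios stand outside the 351.

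Mest, also called Peg1, encodes a protein of the alpha/beta-hydrolase family and is expressed from the paternal chromosome, with high levels in embryonic mesoderm. Its intron carries the single mouse Mir335 gene. miR-335-5p has been reported to target Pou5f1 (Oct4) and Rb1 in mouse embryonic stem cells, and in human breast cancer it is known as a suppressor of metastasis that targets SOX4 and tenascin C. No Mest messenger RNA was measured in these small RNA libraries.

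The hairpin and its arms are printed to show what was counted, in RefSeq sequence of build GRCm38.p6, with the arms in capitals within the hairpin and the seeds in capitals within the arms. The hairpin lies at chr6:30741299-30741396 on the plus strand, the 5p arm at chr6:30741314-30741336 and the 3p arm at chr6:30741354-30741375. The arms listed in the deposited files have the same sequences, with T written for U. The build used for the deposited counts is not given in the sources used here.
Mir335 hairpin: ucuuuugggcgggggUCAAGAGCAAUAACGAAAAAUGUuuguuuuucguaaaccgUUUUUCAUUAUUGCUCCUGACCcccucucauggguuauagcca
miR-335-5p: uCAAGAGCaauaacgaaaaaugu
miR-335-3p: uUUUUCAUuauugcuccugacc

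In the GENCODE M21 annotation of the same build, Mest spans positions 30723547 to 30748465 of chromosome 6 on the plus strand, and 7 of its 11 transcripts span the hairpin. In all 7 the hairpin lies in 1 and the same intron of 1316 bases, from position 30740825 to 30742140, and overlaps no exon of theirs. The 5p arm has 23 bases and the 3p arm 22. Folded with RNAfold, 18 bases of each arm pair with the other arm, at a minimum free energy of -44.3 kcal/mol for the whole hairpin. The seeds, CAAGAGC for the 5p arm and UUUUCAU for the 3p arm, differ from each other, and none of the other entries of the 1899 has either seed. No read of either arm was entered among the multi-matches, the reads that fit several entries.

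miR-335-3p was at a low level in all 4 Wt1 KO libraries and at a high level in both WT libraries. It had 7 reads without treatment in Wt1 KO, 16 at 12 h of dox, 28 at 24 h, 8 in Wt1 KO with RA, 9325 in WT with RA and 243 in untreated WT. In normalised CPM these were 4.96 [1.99 to 10.2] for Wt1 KO without treatment, 14.1 [8.08 to 23.0] at 12 h of dox, 8.23 [5.47 to 11.9] at 24 h, 74.0 [32.0 to 146] in Wt1 KO with RA, 1393 [1365 to 1421] in WT with RA and 223 [196 to 253] in untreated WT. The highest Wt1 KO level, with RA, lay below the lower WT level, that of untreated WT, and their counting intervals do not overlap. The pair was chosen for its low level in Wt1 KO libraries, so this separation is a description. From lowest to highest the order was untreated Wt1 KO, 24 h of dox, 12 h of dox, Wt1 KO with RA, untreated WT and WT with RA. The neighbours in this order whose intervals overlap are untreated Wt1 KO with 24 h of dox, and 24 h with 12 h of dox.

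miR-335-5p had far lower counts, which were also highest in the WT libraries. It had 0 reads without treatment in Wt1 KO, 0 at 12 h of dox, 1 at 24 h, 0 in Wt1 KO with RA, 278 in WT with RA and 6 in untreated WT. Its level was 0.294 normalised CPM [0.00744 to 1.64] after 24 h of dox, 41.5 [36.8 to 46.7] in WT with RA and 5.51 [2.02 to 12.0] in untreated WT. A count of 0 allows up to 3 counts, which equal 2.13 normalised CPM for Wt1 KO without treatment, 2.65 at 12 h of dox and 27.8 in Wt1 KO with RA. In Wt1 KO with RA that limit exceeds the level in untreated WT, so the arm could not have been told from the untreated WT level at this depth. The lower bound in untreated WT, 2.02, lies below the limits of all these libraries, so a comparison of levels alone does not separate untreated WT from them. No ratio interval is given for this arm where a library had 0 reads. For the same counts, 0 after 12 h of dox and 6 in untreated WT, the Igf2 intron miRNA miR-483-5p had a log2 ratio with an upper bound of -0.29. Overlap of these levels is thus no sign that they were alike.

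**Figure D1:**
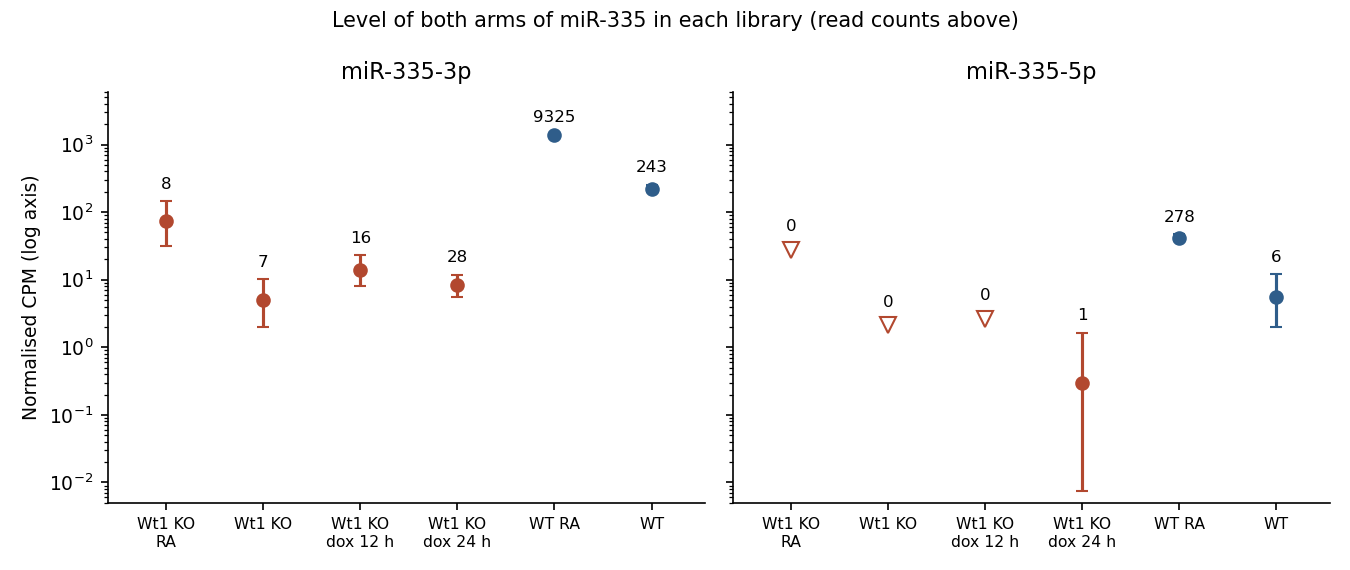
Level of miR-335-3p (left) and miR-335-5p (right) in each library, in normalised CPM on a log axis, with 95% counting intervals and the read count above each point. Open triangles mark libraries without a read, drawn at the level of 3 counts. For miR-335-3p the 4 Wt1 KO points lie between 4.96 and 74.0, and the WT points are at 223 and 1393.

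The reads that each Wt1 KO library would hold at the WT level show what its depth could detect. At the untreated WT level, miR-335-3p would have had 315 reads in Wt1 KO without treatment, where 7 were found, 252 at 12 h of dox, where 16 were found, and 759 at 24 h, where 28 were found. At the level of WT with RA it would have had 150.5 reads in Wt1 KO with RA, the shallowest library, where 8 were found. For miR-335-5p the same reckoning gives 7.77, 6.23 and 18.7 reads in the untreated, 12 h and 24 h libraries and 4.49 in Wt1 KO with RA. All 4 counts of the 3p arm fall far short of these numbers, which restates the low level that the pair was chosen for. For the 5p arm the numbers are themselves small.

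Between untreated libraries, Wt1 KO was set against WT to describe the miRNA profile where Wt1 is missing. miR-335-3p was at 2.22% of its WT level in Wt1 KO, a log2 ratio of -5.38 [-6.82 to -4.43]. Of the 351 miRNAs, 15.4% were called lower in this comparison, and the ratio of miR-335-3p was the 2nd lowest, which is the property the pair was chosen for. The median log2 ratio of the 351 was 0.11. miR-335-5p had 0 reads in Wt1 KO and 6 in WT. With 3 counts in place of the 0 it would be 2.59-fold lower, a figure that leaves out the counting error of the 6 WT reads.

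With RA in both, miR-335-3p in Wt1 KO was at 5.32% of its level in WT, a log2 ratio of -4.23 [-5.45 to -3.25]. In this comparison 19.4% of the 351 miRNAs were called lower, and 10 had a lower ratio than miR-335-3p. miR-335-5p had 0 reads in Wt1 KO and 278 in WT. With 3 counts in place of the 0 it would be 1.50-fold lower, a figure set by the depth of the Wt1 KO library. Entries reported to overlap ribosomal RNA, a sign of RNA quality, held 0.270% of the reads in Wt1 KO with RA and 0.0402% in WT with RA, and their part in the result was not tested.

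RA in WT cells is the contrast that the choice of the pair did not use, although it shares the WT libraries with those that it did. Both arms were at a higher level with RA: miR-335-3p stood at 1393 normalised CPM in WT with RA, against 223 in untreated WT, a log2 ratio of 2.64 [2.46 to 2.83] that was called higher. miR-335-5p stood at 41.5 normalised CPM with RA, against 5.51 in untreated WT, a log2 ratio of 2.89 [1.77 to 4.37]. The intervals of the arms overlap. In this comparison 22.5% of the 351 miRNAs were called higher and 19 had a higher ratio than miR-335-3p, which by reads ranked 56th of 1038 entries with reads in WT with RA and 139th of 788 in untreated WT.

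In Wt1 KO cells miR-335-3p was also higher with RA, at 74.0 normalised CPM, against 4.96 without. The log2 ratio was 3.73 [2.24 to 5.60], from 8 and 7 reads in libraries of very different depth, and 23.4% of the 351 miRNAs were called higher in this comparison. Even so the level with RA was 33.2% of that in untreated WT. The RA response was 1.09 [-0.34 to 2.52] higher in Wt1 KO than in WT on the log2 scale, an interval that includes 0, while 21.7% of the 351 miRNAs had a response called higher in Wt1 KO. With the libraries scaled to their total reads this difference was 1.68 and met the size rule. No response to RA of miR-335-5p can be given for Wt1 KO, where neither library had a read.

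The dox libraries, described as induction of Wt1, were set against untreated WT and untreated Wt1 KO. miR-335-3p stayed far below the WT level at both times: it was at 6.34% of it after 12 h and 3.69% after 24 h, with log2 ratios against untreated WT of -3.94 [-4.81 to -3.25] and -4.72 [-5.38 to -4.19]. The shares of all miRNAs called lower in these comparisons were 17.4% and 14.5%. With 3 counts in place of its 0 after 12 h, miR-335-5p would be 2.08-fold lower than in untreated WT, leaving out the counting error of WT. Its 1 read after 24 h gave a log2 ratio of -3.47 [-9.75 to -1.18], or -2.43 with a prior count of 2 in place of 0.5.

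Against untreated Wt1 KO, miR-335-3p was at 14.1 normalised CPM after 12 h of dox and 4.96 without, a log2 ratio of 1.44 [0.15 to 3.03] that was called higher, as were 4.27% of the 351 miRNAs. This call rests on 16 and 7 reads, and it was lost where the whole interval had to lie past 1. Entries reported to overlap ribosomal RNA held 0.0720% of the reads at 12 h of dox and 0.0250% in untreated Wt1 KO. Of these, miR-6240 was analysed and also called higher, at a log2 ratio of 1.33. Their part in this result was not tested. Scaled to total reads, 35 miRNAs were called higher and 13 lower here, against 15 and 31 in the scaling used. After 24 h miR-335-3p was at 8.23 normalised CPM, with a log2 ratio against untreated Wt1 KO of 0.71 [-0.50 to 2.17], where 5.70% of the miRNAs were called higher. Between the times, 24 h against 12 h, the ratio was -0.76 [-1.72 to 0.20], and 0.855% of the miRNAs were called lower. Neither of these intervals excludes 0. The comparisons of dox libraries share libraries with each other, so they are not separate observations.

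**Figure D2:**
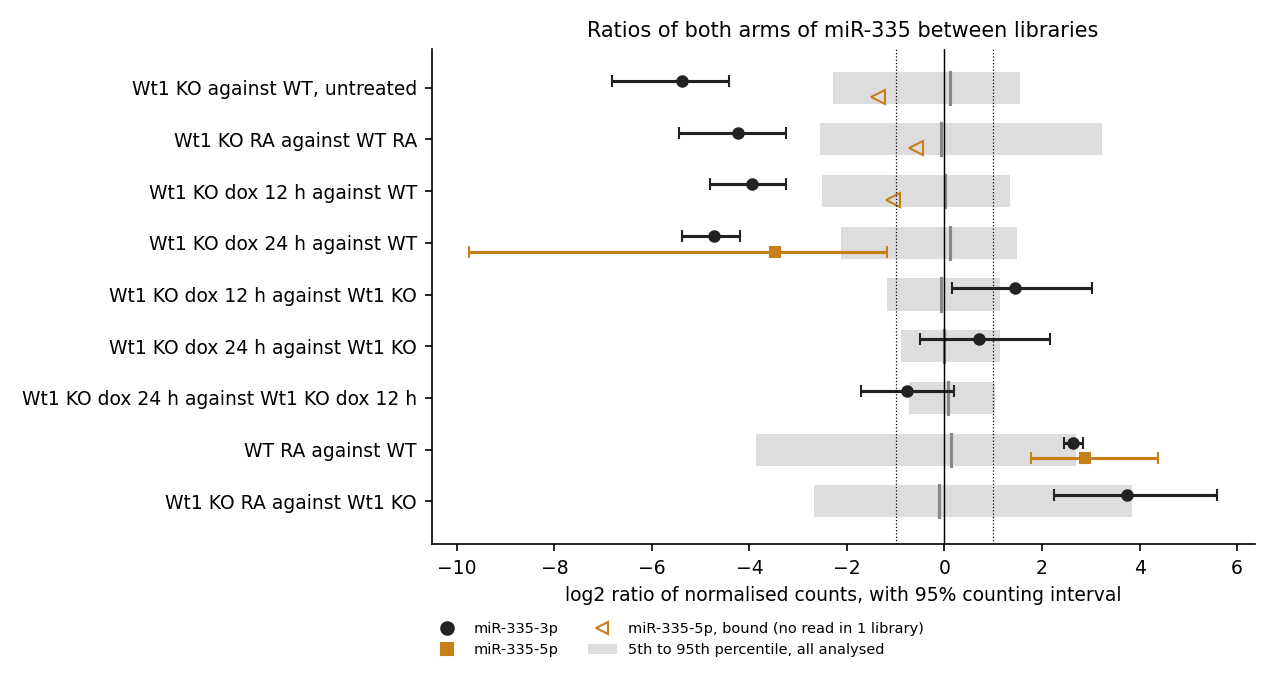
Log2 ratios of miR-335-3p (circles) and miR-335-5p (squares) between libraries, with 95% counting intervals. Open triangles are bounds from 3 counts where 1 library had no read of miR-335-5p, and they leave out the counting error of the other library. Grey bars span the 5th to the 95th percentile of the 351 analysed miRNAs with their median as a line. The 4 ratios of miR-335-3p in Wt1 KO libraries against WT libraries lie between -5.38 and -3.94, to the left of the grey bars.

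The balance of the arms within a library depends on neither depth nor scaling. The 5p arm gave 2.89% [2.57 to 3.25] of the reads of both arms in WT with RA, 278 of 9603, and 2.41% [0.889 to 5.17] in untreated WT, 6 of 249 (exact Clopper-Pearson intervals). Among Wt1 KO libraries it gave 1 of 29 reads after 24 h of dox, 3.45% [0.0873 to 17.8], and 0 of 7 untreated, 0 of 16 after 12 h of dox and 0 of 8 with RA, which leave upper limits of 41.0%, 20.6% and 36.9%. The intervals of all 6 libraries overlap. The 3p arm thus made up nearly all miR-335 reads wherever the hairpin was well counted, with 33.5 reads of it for each read of the 5p arm in WT with RA and 40.5 in untreated WT. These are shares of reads, not of molecules.

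Such a one-sided balance was common among the other hairpins. Of hairpins with both arms listed and at least 50 reads over both, 248 in WT with RA and 183 in untreated WT, the 3p arm had more reads in 54.0% and 53.0%. The median share of the less abundant arm was 2.48% in WT with RA and 2.19% in untreated WT, close to the share of miR-335-5p.

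**Figure D3:**
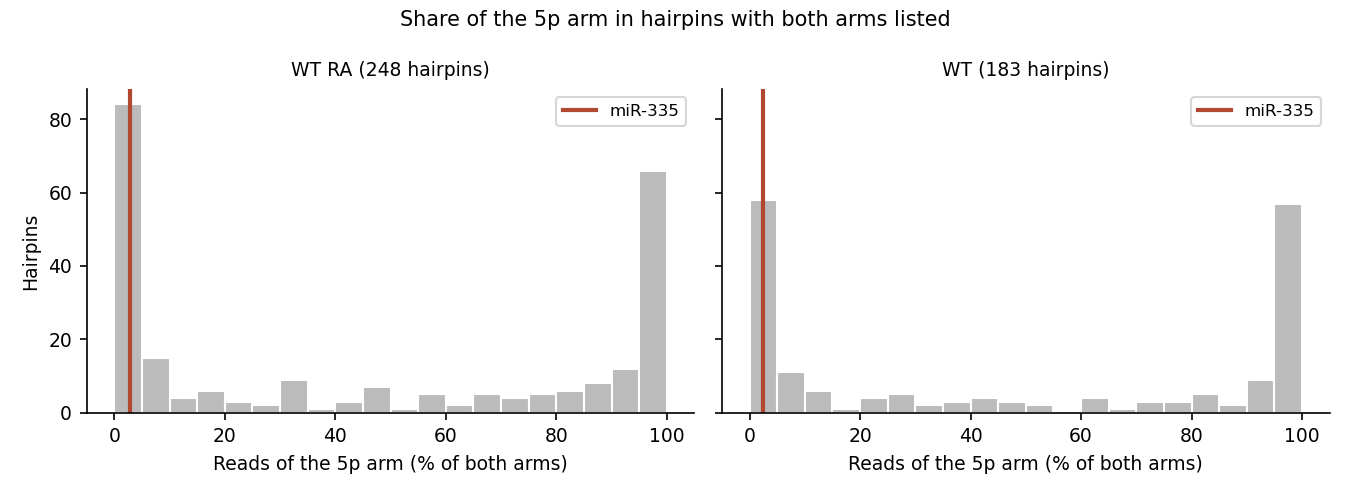
Share of the 5p arm among the reads of both arms (x axis, %) against the number of hairpins, for WT with RA (248 hairpins) and untreated WT (183 hairpins). The line marks miR-335, at 2.89% and 2.41%, inside the tall bar at the low end.

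The miRNAs that the reference places within 5 Mb of Mir335 on chromosome 6 were compared to see whether the neighbourhood moved with it. They comprise 13 mature miRNAs, all with the same sequence in the files, of which 6 passed the minimum count: miR-182-5p, miR-96-5p, miR-183-5p and miR-183-3p, a sensory cell cluster on the other strand at -0.575 to -0.572 Mb from Mir335 (minus is toward lower positions), miR-129-5p, a brain miRNA with a copy elsewhere in the genome, and miR-29a-3p, at 0.321 Mb, a regulator of collagen genes. In untreated Wt1 KO against WT none of the 6 was called in either direction. Their log2 ratios ran from -0.18 to 0.44, with a median of -0.01 against 0.11 for all 351, and -0.37 against -0.24 with libraries scaled to total reads. miR-183-5p had 15352 reads in Wt1 KO and 12538 in WT, a ratio of -0.08 [-0.12 to -0.05], and miR-29a-3p had 132 and 95, a ratio of 0.10 [-0.29 to 0.50].

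Against untreated WT none of the 6 was called after 12 h of dox, and after 24 h miR-96-5p alone was called, lower at -1.12 [-1.44 to -0.81]. With RA in WT, miR-29a-3p alone was called, lower at -1.76 [-2.13 to -1.39], while miR-335-3p was called higher. In Wt1 KO with RA against WT with RA, 4 of the 6 were called lower, all of the miR-183 cluster, with miR-182-5p at -1.53 [-1.61 to -1.46], and miR-29a-3p was called higher at 1.52 [0.29 to 2.54]. Among all 351, 19.4% were called lower and 17.9% higher in that comparison. The ratio of miR-335-3p was lower than those of the 6 in both genotype comparisons. Its interval overlaps with that of miR-96-5p, at 2 and 551 reads, under RA and with none of the 6 without RA.

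**Figure D4:**
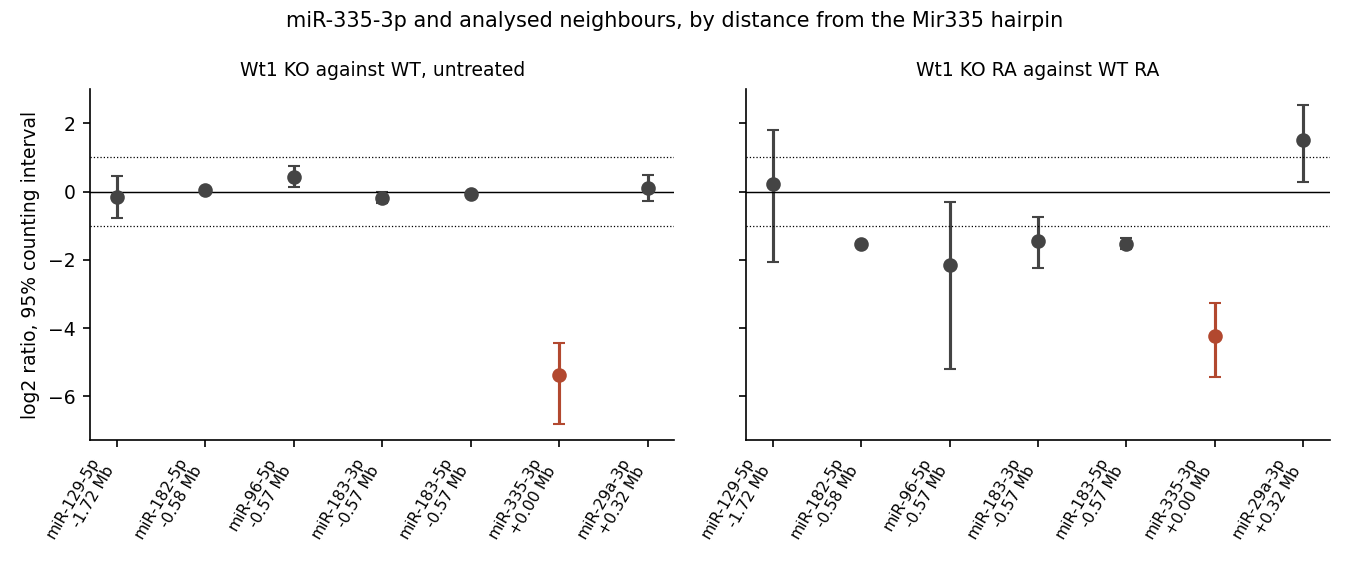
Log2 ratios, with 95% counting intervals, of miR-335-3p and the 6 analysed miRNAs within 5 Mb of it, in the order of their distance from the Mir335 hairpin (minus is toward lower positions). In untreated libraries (left) the neighbours lie between -0.18 and 0.44 and miR-335-3p is at -5.38, and with RA (right) the 4 miR-183 cluster members lie between -2.14 and -1.43.

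miRNAs of other imprinted loci were also compared in untreated Wt1 KO against WT, where 12.3% of the 351 miRNAs were called higher and 15.4% lower. At the Gnas locus none of the 3 analysed miRNAs was called, with a median log2 ratio of 0.16 (-0.20 with total reads): miR-298-5p had 13574 normalised CPM in Wt1 KO and 17055 in WT, a ratio of -0.33 [-0.36 to -0.30]. In the Dlk1-Dio3 region, from Mir770 to Mir410, 9 of 64 analysed miRNAs were called higher and none lower (median 0.42), though with libraries scaled to total reads these were 2 and 1 (median 0.06). Of the miRNA families of the Sfmbt2 intron, listed by name and not by position, 2 of 26 were called higher and 1 lower (median 0.28, and -0.08 with total reads). The Igf2 intron miRNAs miR-483-5p and miR-483-3p had 3 and 1 reads in Wt1 KO, against 6 and 6 in WT, a median log2 ratio of -1.82, and neither was called, though with total reads 1 was called lower (median -2.13). Neither miR-483 arm had a read after 12 h of dox, and both were called lower than in untreated WT. The upper bound of either log2 ratio was -0.29, and with 3 counts in place of 0 each arm would be 2.08-fold lower. After 24 h miR-483-5p had 9 reads and miR-483-3p had 3, the 3p arm being called lower at -2.38 [-5.27 to -0.42]. miR-675, the miRNA of the imprinted H19 RNA, had no read of either arm in any library.

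With RA in WT, both miR-483 arms were called higher, as miR-335-3p was. Both reached the minimum count only through WT with RA, having at most 9 reads in any other library, so being analysed nearly fixed this call. miR-483-5p had 688 reads with RA and 6 without, a log2 ratio of 4.19 [3.09 to 5.67], and miR-483-3p had 549 and 6, a ratio of 3.87 [2.76 to 5.35]. Of the Dlk1-Dio3 region 24 of 64 were called higher and 1 lower (median 0.68), and none of the 3 Gnas miRNAs was called. All 26 analysed miRNAs of the Sfmbt2 intron families, listed by name, were called lower (median -2.24), opposite to miR-335-3p. Among all 351, 22.5% were called higher and 24.2% lower. Under RA the miR-483 arms did not share the genotype difference of miR-335-3p: in Wt1 KO against WT their ratios were -0.30 [-1.44 to 0.63] and -0.34 [-1.66 to 0.71], with intervals that lie above that of miR-335-3p. In that comparison 1 of the 3 Gnas miRNAs was called lower, miR-298-5p at -1.80 [-1.90 to -1.70]. Of the Dlk1-Dio3 region 4 of 64 were called higher and 10 lower (median -0.25). Of the Sfmbt2 intron families 11 of 26 were called higher and none lower (median 1.32). Among all 351, 17.9% were called higher and 19.4% lower there.

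Likeness of pattern was measured as the root mean square difference of log2 normalised CPM over the 6 libraries, after centring each miRNA on its own mean. The 5 miRNAs most like miR-335-3p were miR-125b-1-3p, cut from the same hairpin as 1 copy of miR-125b-5p, at a difference of 0.71, miR-181a-5p, known from lymphocyte development, at 1.13, the muscle miRNA miR-133a-3p at 1.13, miR-125b-5p, a conserved regulator of differentiation, at 1.13, and miR-181b-5p at 1.15. The median difference over the 350 miRNAs compared was 2.93. Since all 6 libraries enter the measure and the pair was chosen for its low level in Wt1 KO, these are descriptions of a shared pattern in these libraries. Mature sequences of 3 of them are printed, seeds in capitals, to set beside miR-335-3p, with which none shares a seed.
miR-125b-1-3p: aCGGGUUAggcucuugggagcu
miR-181a-5p: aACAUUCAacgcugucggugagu
miR-125b-5p: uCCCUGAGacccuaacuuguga
They come from other chromosomes than miR-335. miR-125b-1-3p lies at chr9:41581980-41582001 (plus strand), miR-181a-5p has copies on chromosomes 1 and 2, and miR-125b-5p has copies on chromosomes 9 and 16.

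miR-125b-1-3p had 10 reads without treatment in Wt1 KO, 13 at 12 h of dox, 21 at 24 h, 12 in Wt1 KO with RA, 3712 in WT with RA and 116 in untreated WT. Like miR-335-3p it was low in all Wt1 KO libraries without RA and was called higher with RA in WT, with log2 ratios of -3.84 [-5.01 to -2.98] for untreated Wt1 KO against WT and 2.38 [2.11 to 2.66] for RA in WT. As miR-125b-1-3p reached the minimum count only through WT with RA, its call with RA was nearly fixed by that minimum. miR-181a-5p had 514, 746, 2814, 2048, 282480 and 6055 reads in the same order. It differed from miR-335-3p under RA, where Wt1 KO against WT gave -1.15 [-1.22 to -1.09], while the ratio of miR-335-3p had an upper bound of -3.25. For miR-335-5p the most similar pattern was that of its partner arm, at a difference of 1.41, followed by miR-489-3p at 1.56, which had 348 reads in WT with RA and at most 7 elsewhere. miR-489-3p came first with total reads, and miR-181a-5p without Wt1 KO with RA, and the pattern of miR-335-5p includes 3 libraries with 0 reads.

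**Figure D5:**
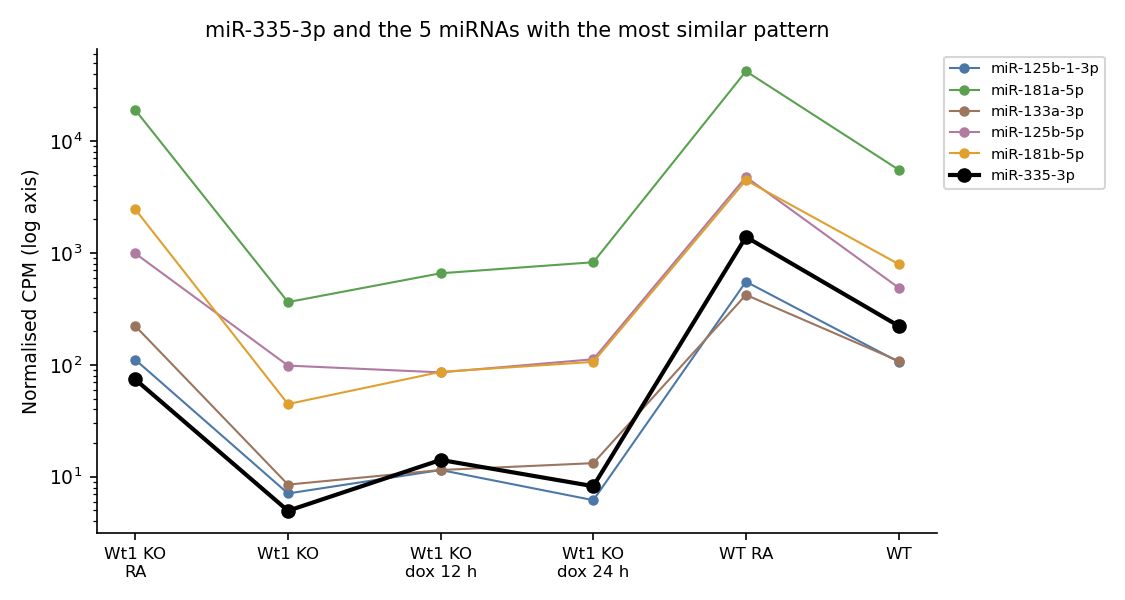
Normalised CPM (log axis) of miR-335-3p (black) and the 5 miRNAs with the most similar pattern in the 6 libraries. All 6 are lower in the 3 Wt1 KO libraries without RA than in untreated WT, and in Wt1 KO with RA miR-335-3p, at 74.0, is the lowest of them.

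Markers of mesoderm and mesenchyme, where Mest is known to be expressed, went both ways in untreated Wt1 KO, more of them called lower than higher. With RA they were mostly not called lower. Of 11 entries listed, 6 were analysed, and in untreated Wt1 KO against WT 4 were called lower and 1 higher (median -2.07), beside 15.4% lower and 12.3% higher among all 351. With RA in both, 1 was called lower and 2 higher (median -0.16), where miR-335-3p was at -4.23. In untreated cells the lower ones were miR-133a-3p, miR-21a-5p, miR-22-3p and miR-31-5p, the last of these at -2.22 [-2.38 to -2.08]. The higher one was miR-143-3p at 1.08 [0.86 to 1.31], a smooth muscle miRNA, whose call was lost with total reads. The joint entry miR-199b-3p/miR-199a-3p was not called, at 0.68 [0.16 to 1.24]. The list made up 1.30% of reads for Wt1 KO without treatment, 2.90% at 12 h and 2.63% at 24 h of dox, 3.74% in Wt1 KO with RA, 3.87% in WT with RA and 6.28% in untreated WT, most of it miR-22-3p. The skeletal muscle markers miR-1a-3p and miR-206-3p had no read in any library. Whether a different makeup of cells contributed to the miR-335 levels was not tested, and in bulk libraries fewer cells of a type and less RNA per cell cannot be told apart.

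Other miRNAs reported to target pluripotency factors were set beside miR-335-5p, for which such targets are reported. Of 6 analysed, 1 was called higher and 1 lower in untreated Wt1 KO against WT (1 and 2 with total reads), near the 12.3% and 15.4% of all 351. The higher one was miR-470-5p at 1.93 [1.58 to 2.29], and the lower one was miR-203-3p, a skin miRNA, at -1.86 [-3.58 to -0.56]. miR-203-3p was also called higher with RA in WT, at 2.34 [1.67 to 3.11]. It reached the minimum count only through its 563 reads in WT with RA, which nearly fixed that call. miR-134-5p, at 2972 normalised CPM in Wt1 KO and 1862 in WT, was not called.

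Of the remaining marker lists, neural miRNAs had 2 of 3 analysed called higher in untreated Wt1 KO against WT. Blood and endothelium had 1 of 3 higher and endoderm none of 1, with none lower in these lists, beside 12.3% higher among all 351. With total reads the neural count was 1 of 3. The stem cell miRNAs of the miR-290 and miR-302 clusters had 3 of 15 called lower and none higher, beside 15.4% lower among all 351. With RA in both, 13 of these 15 were called higher in Wt1 KO and none lower (median 3.33), beside 17.9% higher among all 351. Their part in the level of miR-335 was not tested. The HOX cluster miRNAs, known to be raised by RA, had 4 of 5 called higher in WT with RA against untreated WT, where 22.5% of all 351 were. Of these, miR-10a-3p and miR-615-3p reached the minimum count only through WT with RA. In Wt1 KO with RA against WT with RA 3 of these 5 were called lower (median -1.85), beside 19.4% of all 351, and their share of reads was 2.40% in Wt1 KO with RA and 10.9% in WT with RA. Their part in the level of miR-335 under RA was not tested.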

How the data were processed

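The data are small RNA libraries, 1 per group. Per the file headers, the deposited values are counts of reads per mature miRNA that matched 1 entry (unique matches) or several (multi-matches). Per the labels' protocols, RNA was ligated to adapters, and gel bands of miRNA and of longer inserts were both cut out. Aligner, mismatches allowed, miRBase version and genome build: not given in the sources used here. The members, lists and comparisons were chosen with earlier results of these data known.

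Unique-match counts were normalised by TMM (trimmed mean of M values), using 351 miRNAs whose counts averaged 50 or more, in edgeR 4.0.16 under R 4.3.3. Factors were 0.798, 0.922, 0.937, 1.29, 1.10 and 1.02 for untreated Wt1 KO, 12 h and 24 h of dox, Wt1 KO with RA, WT with RA and untreated WT. Log2 ratios used a prior count of 0.5 and exact conditional binomial (Clopper-Pearson) 95% intervals, levels exact Poisson intervals, and the difference of RA responses a delta-method interval. The interval code was tested on simulated data. Where a library had no read, folds are computed from 3 counts in it and leave out the counting error of the other library. Named miRNAs are the members, the 5 with the most similar pattern and up to 4 of highest mean count per list, all others being chosen after their values were seen. Alternatives were other scalings (CPM of the total, the same leaving out the stem cell clusters miR-290 and miR-302, and the median of ratios in DESeq2 1.42.0), minimum mean counts of 10 and 200 or none, prior counts of 0.25 and 2, added multi-matches and a stricter size rule. Hairpins were folded with RNAfold 2.7.2.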

Additional observations from a re-analysis of the deposited data

How the results depend on the processing

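miR-335-3p kept its direction in the 10 comparisons under each of 10 alternatives. Its log2 ratio ran from -5.73 to -5.10 in untreated Wt1 KO against WT, from -4.65 to -3.86 with RA in both, from 2.50 to 2.74 for RA in WT and from 3.34 to 4.42 for RA in Wt1 KO. The difference of the RA responses, 1.09, was 1.68 as CPM of the total and 1.80 with the stem cell clusters also left out, and both met the size rule, while the median of all miRNAs moved by 0.58 and 0.70. The ratio of 1.44 for 12 h of dox against untreated Wt1 KO was no longer called where the whole interval had to lie past 1, because its lower bound is 0.15. Over the alternatives the number of miRNAs called lower was 32 to 83 in untreated Wt1 KO against WT, 30 to 110 with RA in both, 39 to 81 after 12 h of dox against WT, 33 to 85 after 24 h against WT and 2 to 23 for 24 h against 12 h, where the main counts were 54, 68, 61, 51 and 3. The number called higher was 4 to 51 for 12 h of dox against Wt1 KO, 9 to 48 for 24 h, 50 to 121 for RA in WT, 55 to 124 for RA in Wt1 KO and 43 to 131 for the difference of responses, where the main counts were 15, 20, 79, 82 and 76. As CPM of the total, the share of calls that were higher was 24.8% in untreated Wt1 KO against WT (44.3% in the scaling used), 65.9% with RA in both (48.1%), 30.8% for 12 h of dox against WT (41.3%), 75.6% for 24 h against Wt1 KO (60.6%), 78.5% for RA in Wt1 KO (50.3%) and 81.7% for the difference of responses (53.9%). Without Wt1 KO with RA, 4 of the 5 miRNAs most like miR-335-3p were the same, and 2 of the 5 most like miR-335-5p. No paired analysis was possible because each group has 1 library, and for the same reason no library could be left out of a comparison. The 5p arm was at -3.79 to -2.43 for 24 h of dox against WT and at 2.74 to 2.98 for RA in WT. Its folds from 3 counts were 2.52 to 3.33-fold lower in untreated Wt1 KO, 1.16 to 2.00-fold with RA in both and 2.01 to 2.31-fold after 12 h of dox. Depth limits miR-335-5p most in Wt1 KO with RA, where 4.49 reads would be found at the WT level.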
